A study of Mus musculus with 4 samples.

Results

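Transcripts of 10 elastic fibre and fibulin genes were followed in E10.5 mouse larynx lacking *Shh*, the ligand that the foregut epithelium sends to the tissue around it. The genes were taken by name from 46983 genes listed in the deposited tables, and all 10 had an entry. They encode elastin (*Eln*), the fibrillins (*Fbn1* and *Fbn2*), the microfibril-associated proteins *Mfap2* and *Mfap4*, the fibulins *Fbln1*, *Fbln2* and *Fbln5*, and the lysyl oxidases *Lox* and *Loxl1*. The libraries were 2 *Shh-/-* pools (pools 1 and 2) and 2 wild-type (WT) Swiss Webster pools (pools 4 and 6). Each pool held RNA of larynx tissue from 3 embryos at 32 to 35 somites. The series design and the study give the mutants as *Shh-/-*, homozygous for the null allele *Shhtm1amc* kept on a Swiss Webster background, whereas the genotype label of the same pools reads Shh+/-.

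Elastic fibres are built in steps. Fibrillins and their partners assemble into microfibrils outside the cell, fibulins bring soluble elastin to this scaffold, and lysyl oxidases, which need copper, oxidise lysines so that elastin chains join into a rubber-like core. In the adult larynx these fibres give the vocal fold its recoil, while at mid-gestation fibrillins and fibulins are already present in embryonic mesenchyme and around vessels and nerves.

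As a check of the labels, *Shh* itself measured 10.4 and 10.8 TPM in mutant larynx and 23.7 and 42.1 TPM in WT. TPM is a length-scaled share of each library, in transcripts per 1000000. The target *Ptch1*, the receptor gene that Hedgehog signalling switches on, was at 12.9 and 13.8 TPM against 57.8 and 55.1 TPM. *Gli1*, another target, was at 3.2 and 8.45 TPM against 41.7 and 32.9 TPM. In the limma test described below, *Ptch1* passed (adjusted p = 0.0319), while *Shh* (0.0895) and *Gli1* (0.0715) did not. *Shh* transcripts were thus lower but not absent in the mutant pools, and which genotype label is right was not tested further. *Shh-/-* pool 1 was the shallowest library, with 1370000000 aligned bases against 2850000000 to 3130000000 in the others. RNA integrity numbers were 8 and 7.7 in the *Shh-/-* pools and 7.7 and 9 in WT. The epithelial genes *Foxa2* (29.2 and 39.8 TPM) and *Nkx2-1* (15.9 and 17.9 TPM) were present in WT larynx and lower in the mutants (5.34 and 9.12 TPM, and 6.16 and 3.61 TPM). Of 8 epithelial markers, 4 had both mutant pools below WT and 3 above (*Epcam*, *Krt8* and *Krt18*). Mesenchymal *Pdgfra* was at 105.9 and 104.8 TPM in the mutants and 82.6 and 103.1 TPM in WT. Of 9 general mesenchyme markers, 7 had both mutant pools above WT and 1 had both below.

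Values were compared as log2(TPM + 1) with limma, a linear model that shares its estimate of the spread across genes, over 16972 genes, those whose TPM averaged 1 or more across the libraries. All 10 members passed this filter. Differences are *Shh-/-* minus WT with the standard error (SE), and the adjusted p is Benjamini-Hochberg over all tested genes with a threshold of 0.05. An exact permutation of 2 pools against 2 cannot go below p = 0.33 and was not used.

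Elastin and fibulin 2 rose in the *Shh-/-* larynx and passed the test. These were 2 of the 10 members, where 0.725% of all tested genes passed in either direction and 0.56% as higher. No member passed as lower, beside 0.165% of all tested genes. In all, 123 genes passed, 95 of them higher. When each library was adjusted for the GC percentage and length of the transcripts (composition-adjusted values), 95 passed, 63 of them higher. *Fbn1*, *Mfap2*, *Mfap4*, *Fbln1*, *Fbln5* and *Loxl1* were higher and *Fbn2* and *Lox* lower without passing. In RNA of a whole tissue, more cells of a type and more RNA per cell cannot be told apart. For each of the 10 members both *Shh-/-* pools lay outside both WT pools, 8 above and 2 below, which was also so for 60.7% of all tested genes, 38% above and 22.7% below. The members' median difference was 0.50 on the log2 scale, beside 0.08 over all tested genes. An unadjusted p under 0.05 was found for 9 of the 10 and for 24.8% of all tested genes. With composition-adjusted values it was found for 5 of the 10 members and 3197 of 16887 genes, and the members' median was 0.31. With median centring it was found for 6 of the 10 and for 4024 of 16972 genes. With eBayes run without a trend it was found for 6 of the 10 and for 3897 of 16972 genes.

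**Figure D1:**
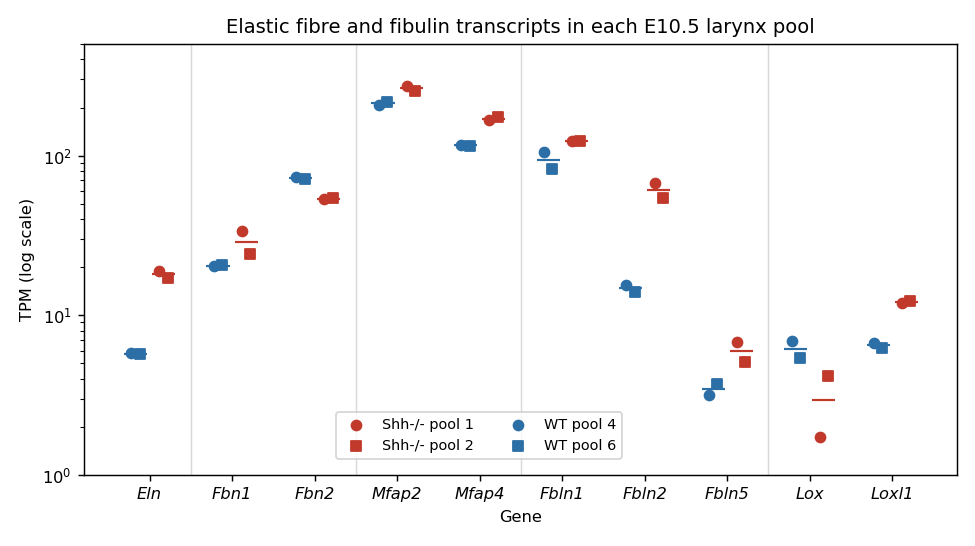
TPM (log scale) of the 10 genes in each library, with red for *Shh-/-* pools, blue for WT pools, circles and squares for the 2 pools of a genotype and short lines for the mean of 2 pools. The widest gaps between genotypes are those of *Eln* and *Fbln2*, while *Fbn2* and *Lox* are the genes whose red points lie below the blue ones.

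*Eln* (ENSMUSG00000029675.12, mm10 chromosome 5, 134702593 to 134747323, minus strand) encodes tropoelastin, the soluble precursor of the elastic core. It was at 18.9 and 17.2 TPM in *Shh-/-* pools 1 and 2, against 5.76 and 5.69 TPM in WT pools 4 and 6. The mutant pools lay close together and about 3-fold above WT. The mean rose from 5.73 ± 0.047 TPM (SD, n = 2) to 18 ± 1.26 TPM (SD, n = 2), a ratio of 3.15, and the log2 difference was 1.5 (SE 0.15, limma adjusted p = 0.0422). The composition-adjusted difference was 1.05, with a limma adjusted p of 0.0735. With any 1 pool left out, the difference stayed between 1.43 and 1.57, and the limma adjusted p was 0.107 to 0.168.

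*Fbn1* (chromosome 2, 125300594 to 125507993) encodes fibrillin 1, the main microfibril backbone of postnatal tissues, and *Fbn2* (chromosome 18, 58008623 to 58209926) encodes fibrillin 2, the form known mostly from embryonic microfibrils. *Fbn1* measured 33.5 and 24.1 TPM in mutant larynx against 20.2 and 20.5 TPM in WT. Its pools did not overlap, but the mutant pools differed from each other by more than either WT pool from the lower of them, and the difference of 0.46 (SE 0.19, limma adjusted p = 0.211) was 0.24 without *Shh-/-* pool 1. *Fbn2* measured 53.3 and 54.0 TPM in mutant larynx against 73.3 and 70.9 TPM in WT. Here both pairs of pools were tight, and the difference was −0.42 (SE 0.10, limma adjusted p = 0.114). Neither fibrillin passed the threshold.

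Because both fibrillins are read in the same library, their ratio does not depend on how libraries are scaled. *Fbn2* over *Fbn1* was 3.63 and 3.46 in WT pools 4 and 6, and 1.59 and 2.24 in *Shh-/-* pools 1 and 2. Fibrillin 2 transcripts therefore remained the more abundant of the pair in every library, by a smaller margin in the mutants. *Eln* over *Fbn1* was 0.286 and 0.278 in WT and 0.566 and 0.711 in *Shh-/-*, so that elastin transcripts were higher relative to either fibrillin in the mutant pools. These ratios are descriptions without a test.

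*Mfap2* and *Mfap4* encode small glycoproteins of the microfibril surface, of which *Mfap2* (also known as MAGP1) binds fibrillins and *Mfap4* binds elastin and lysyl oxidase. *Mfap2* (chromosome 4, 141010418 to 141015984) was the most abundant member by TPM in every library, at 273.7 and 253.5 TPM in *Shh-/-* and 207.8 and 218.0 TPM in WT. *Mfap4* (chromosome 11, 61485431 to 61488900) came next, at 165.9 and 173.6 TPM against 116.4 and 115.6 TPM. Both genes were higher in each mutant pool. The log2 difference was 0.31 for *Mfap2* (SE 0.09, limma adjusted p = 0.151) and 0.54 for *Mfap4* (SE 0.09, limma adjusted p = 0.0766). The composition-adjusted differences were 0.03 and 0.36. *Mfap4* shares 89 bp with *Mapk7* on the opposite strand, which was at 28.1 to 42.8 TPM.

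**Figure D2:**
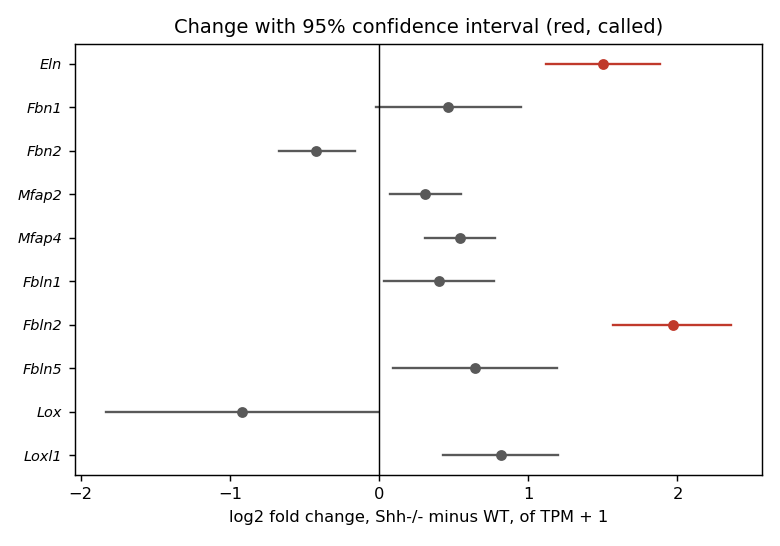
Difference between *Shh-/-* and WT in log2(TPM + 1) for each of the 10 genes, with the 95% confidence interval from limma. Red marks *Eln* and *Fbln2*, the 2 genes past the threshold of 0.05. The interval of *Fbn1* (−0.02 to 0.95) includes 0. Those of *Lox* (−1.83 to −0.01), *Fbln1* (0.03 to 0.77), *Mfap2* (0.07 to 0.55) and *Fbln5* (0.09 to 1.19) end close to 0.

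*Fbln2* (ENSMUSG00000064080.12, chromosome 6, 91212455 to 91272540, plus strand) encodes fibulin 2, a matrix protein of developing heart valves, vessels and basement membranes that binds fibrillin and elastin. It measured 67.2 and 54.5 TPM in mutant larynx against 15.5 and 14.0 TPM in WT. Every mutant value was more than 3-fold above every WT value. Its mean of 60.9 ± 8.94 TPM (SD, n = 2) in the mutants was 4.12 times the WT mean of 14.8 ± 1.11 TPM (SD, n = 2), and the log2 difference was 1.97 (SE 0.15, limma adjusted p = 0.0323), the 100th highest of all tested genes. With any 1 pool left out it stayed between 1.82 and 2.11, with a limma adjusted p of 0.0699 to 0.132. The call was also lost by scaled read coverage and without a filter on TPM (limma adjusted p = 0.146), and the latter was so for *Eln* too (limma adjusted p = 0.146).

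*Fbln1* (chromosome 15, 85205949 to 85286535), which encodes a fibulin of embryonic matrix and basement membranes, was at 123.6 and 123.8 TPM in *Shh-/-* and at 105.5 and 82.9 TPM in WT. The WT pools were farther apart than WT pool 4 was from the mutants, and the difference of 0.40 (SE 0.14, limma adjusted p = 0.180) was 0.23 without WT pool 6 and 0.07 when composition-adjusted. *Fbln5* (chromosome 12, 101746565 to 101819055), whose protein binds tropoelastin and lysyl oxidase-like 1 and is required for elastic fibres in the mouse, was lower by TPM than *Fbln1* and *Fbln2* in every library. Its values were 6.79 and 5.07 TPM in *Shh-/-* and 3.15 and 3.70 TPM in WT, a difference of 0.64 (SE 0.21, limma adjusted p = 0.166). *Fbln2* over *Fbln1* was 0.147 and 0.169 in WT and 0.544 and 0.440 in *Shh-/-*. *Fbln5* over *Fbln1* overlapped between genotypes, at 0.0299 and 0.0447 in WT and 0.055 and 0.041 in *Shh-/-*.

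The promoters of the 3 fibulins are shown because one of these related genes passed the test and the others did not. Promoter sequences from RefSeq (GRCm38.p6) were used for 5 of the 10 members, namely *Fbn1*, *Mfap2* and the fibulins, and those of the other 5 were not analysed here. The lines give the 250 bases before the RefSeq start nearest to each gene's listed 5′ end, on the gene's strand and 5′ to 3′, at chr6:91212514-91212763 (plus strand) for *Fbln2*, chr15:85205699-85205948 (plus strand) for *Fbln1* and chr12:101819120-101819369 (minus strand) for *Fbln5*. Capitals mark matches on either strand to GGGCGG (GC box) or CAGAC (SMAD element).
Fbln2: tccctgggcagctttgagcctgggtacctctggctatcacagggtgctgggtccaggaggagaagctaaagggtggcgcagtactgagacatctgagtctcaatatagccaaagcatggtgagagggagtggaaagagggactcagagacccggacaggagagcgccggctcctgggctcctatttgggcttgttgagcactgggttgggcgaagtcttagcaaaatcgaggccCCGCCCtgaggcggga
Fbln1: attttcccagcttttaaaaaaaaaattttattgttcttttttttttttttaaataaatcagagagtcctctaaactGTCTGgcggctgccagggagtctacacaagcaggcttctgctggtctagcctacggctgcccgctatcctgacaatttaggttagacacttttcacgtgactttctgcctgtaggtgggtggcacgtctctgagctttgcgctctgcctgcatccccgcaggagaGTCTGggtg
Fbln5: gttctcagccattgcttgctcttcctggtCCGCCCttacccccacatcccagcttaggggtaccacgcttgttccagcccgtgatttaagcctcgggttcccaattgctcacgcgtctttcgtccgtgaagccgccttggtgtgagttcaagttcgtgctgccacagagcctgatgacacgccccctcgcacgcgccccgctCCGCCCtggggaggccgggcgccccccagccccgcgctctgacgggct

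The *Fbln2* window held 1 GC box and the *Fbln5* window 2, while that of *Fbln1* held none and had 2 CAGAC matches. A GC box was found in 32.7% and CAGAC in 42.2% of the 32851 promoter windows of this length. No window of the 5 members held the GLI site GACCACCCA, which 0.225% of all windows hold. The same was so for the TATA box (searched as TATAAA and found in 12.4% of all windows). It was so, too, for the AP-1 site, with the letters TGANTCA and a share of 6.75%, and for the CArG box of serum response factor (1.47%). Every motif was searched on both strands. GC content was 58.8% for *Fbln2*, 46.4% for *Fbln1* and 65.2% for *Fbln5*, beside a median of 52.4% over all windows. The motifs were searched separately, and no match in capitals overlapped another. The RefSeq start of *Fbln2* lies 309 bases downstream of its listed 5′ end, and that of *Fbn1* 1555 bases downstream. The windows of these genes therefore lie within the genes as listed.

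*Lox* (chromosome 18, 52516069 to 52529867) encodes the founding lysyl oxidase, which crosslinks collagen as well as elastin. It was at 1.73 and 4.17 TPM in *Shh-/-* pools 1 and 2, against 6.85 and 5.40 TPM in WT pools 4 and 6. *Shh-/-* pool 1 was the lowest, with a mean read coverage of *Lox* of 1.06. Scaled by aligned bases, the coverage was 0.77 in this pool against 1.66 in the other mutant pool and 2.74 and 2.16 in WT. The difference was −0.92 (SE 0.35, limma adjusted p = 0.2) and −0.46 without *Shh-/-* pool 1. *Loxl1* (chromosome 9, 58287723 to 58313212) encodes lysyl oxidase-like 1, which is tied to elastin in particular. It was at 12 and 12.2 TPM in *Shh-/-* and at 6.70 and 6.21 TPM in WT, with tight pools in both genotypes. The difference was 0.82 (SE 0.15, limma adjusted p = 0.0883), and it was 0.34 when composition-adjusted.

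In WT the oxidases were at about equal levels by TPM, with *Lox* over *Loxl1* at 1.02 and 0.869. By coverage scaled by aligned bases, the WT ratio was 0.818 and 0.697. In the *Shh-/-* pools the ratio was 0.144 and 0.340 by TPM and 0.134 and 0.272 by coverage. *Loxl1* was thus the more abundant transcript of the pair in both mutant pools, and on each scale the lower mutant ratio came from the shallowest library.

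**Figure D3:**
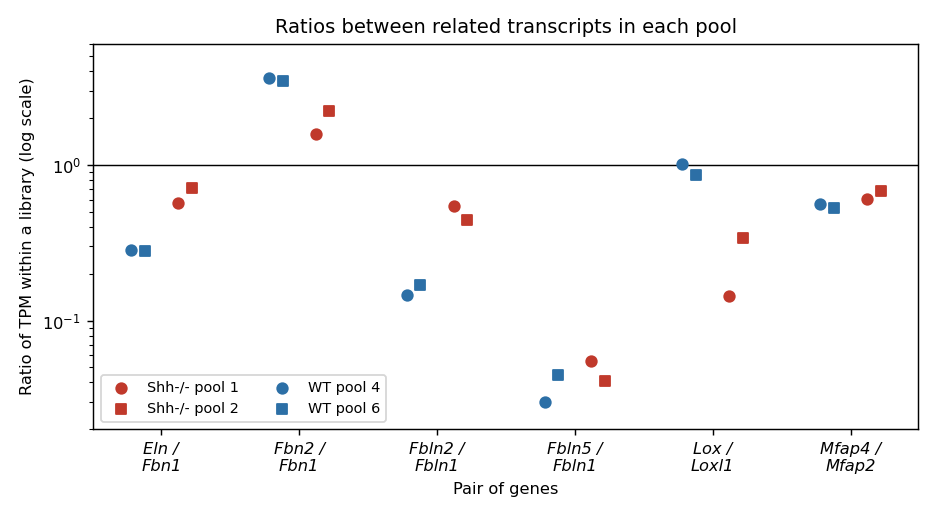
Ratio of TPM between related genes within each library (log scale), with colours and symbols as in the plot of levels and a line at 1. *Eln* over *Fbn1*, *Fbn2* over *Fbn1*, *Fbln2* over *Fbln1* and *Lox* over *Loxl1* separate the genotypes, *Mfap4* over *Mfap2* does so by a small margin (0.560 and 0.530 in WT, 0.606 and 0.685 in *Shh-/-*), and *Fbln5* over *Fbln1* overlaps.

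Ordered by mean TPM in WT, the members ran *Mfap2*, *Mfap4*, *Fbln1*, *Fbn2*, *Fbn1*, *Fbln2*, *Loxl1*, *Lox*, *Eln* and *Fbln5*. The pools of *Loxl1* and *Lox*, and those of *Lox* and *Eln*, overlapped, and all other neighbours were apart in both WT pools. In *Shh-/-* the order was *Mfap2*, *Mfap4*, *Fbln1*, *Fbln2*, *Fbn2*, *Fbn1*, *Eln*, *Loxl1*, *Fbln5* and *Lox*, with no overlap between neighbours. *Fbln2* stood at rank 6 in WT and rank 4 in *Shh-/-*, and *Lox* at rank 8 in WT and rank 10 in *Shh-/-*. Summed over the members, the level was 756.6 and 722.3 TPM in *Shh-/-* and 561.2 and 542.8 TPM in WT. *Fbln2* took 8.88 and 7.55% of this sum in the mutants and 2.77 and 2.57% in WT, whereas *Fbn2* took 7.04 and 7.48% and 13.1% in both WT pools.

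Levels of genes with several transcripts depend on how StringTie shares reads among them. For *Fbn2*, *Fbln5* and *Loxl1* the FPKM equalled the mean gene coverage per aligned base, but for *Fbln2*, with 9 transcripts in GENCODE M21, it was 10.6 to 12.6 times as high. For *Eln* this factor was 2.29 to 2.49 and for *Mfap2* 3.12 to 3.33. By scaled coverage *Fbln2* had rank 9 in *Shh-/-* and 10 in WT, and *Fbn2* rank 1 in WT. The order and the shares of the sum given above therefore hold for TPM only. For *Fbn1* the factor was 1.23 in *Shh-/-* pool 1 and 1.02 to 1.06 in the others, and the ratio between genotypes was 1.24 by coverage and 1.42 by TPM. By coverage, *Fbn2* over *Fbn1* was 1.96 and 2.37 in *Shh-/-* and 3.81 and 3.53 in WT. *Fbln2* over *Fbln1* was 0.122 and 0.0941 in *Shh-/-* and 0.033 and 0.0341 in WT on this scale. *Fbln5* over *Fbln2* was 1.08 and 1.09 in *Shh-/-* and 2.26 and 3.34 in WT, so by coverage *Fbln5* was the higher of the pair in every library. The ratio between genotypes was close on both scales for *Fbln2* (4.27 by coverage and 4.12 by TPM), *Eln* (3.28 and 3.15) and *Lox* (0.495 and 0.481). On log2(scaled coverage + 1), however, the *Fbln2* difference was 1.17 with a limma adjusted p of 0.0589, and its WT values (0.699 and 0.554) were below the pseudocount.

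Other genes of the elastic fibre were read from lists by role. Of 39 symbols, 38 had an entry (*Adamtsl6* had none, and its gene is listed as *Thsd4*) and 32 were tested. The log2 difference was above 0 for 25 of them, beside 58.3% of all tested genes. None passed limma's adjusted threshold, beside 0.725% of all tested genes, and 17 had an unadjusted p under 0.05, beside 24.8%. Their median log2 difference was 0.38, and 20 had both mutant pools above WT, beside 38% of all tested genes. With composition-adjusted values, 14 of the 32 had an unadjusted p under 0.05 in limma, beside 3197 of 16887 genes. The difference went from 0.67 to 0.19 for *Emilin1* and from 0.74 to 0.34 for *Bmp1*. It went from 1.35 to 1.10 for *Loxl2* and from 0.35 to 0.42 for *Efemp1*.

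**Figure D4:**
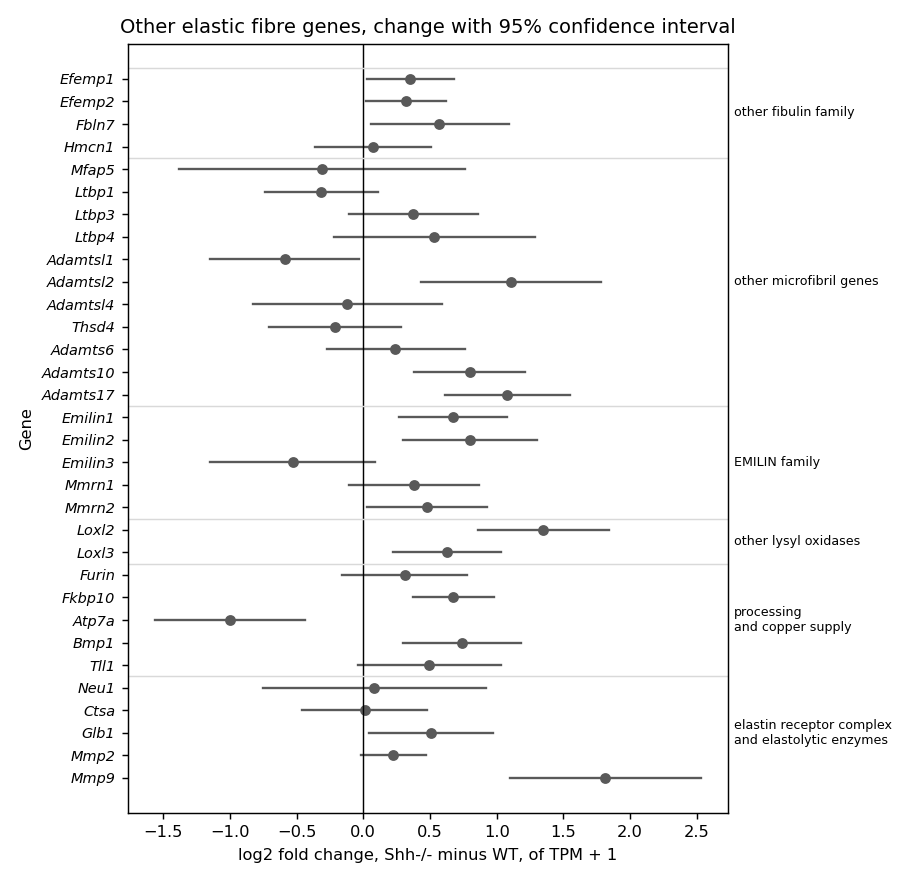
Difference between *Shh-/-* and WT in log2(TPM + 1), with the 95% confidence interval from limma, for the 32 tested genes of the other elastic fibre lists, grouped by role. None is past the threshold, and *Mmp9* (1.81) and *Loxl2* (1.35) lie farthest to the right and *Atp7a* (−1.0) farthest to the left.

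In the fibulin family outside the members, 3 of 4 tested genes were above WT in both mutant pools, beside 38% of all tested genes, with a median of 0.34. *Fbln7* was at 2.70 and 2.51 TPM in *Shh-/-* and 1.48 and 1.37 TPM in WT (difference 0.57, limma adjusted p = 0.176). *Efemp1*, the gene of fibulin 3, was at 42.7 and 44.8 TPM against 31.7 and 36.6 TPM (0.35, limma adjusted p = 0.181). *Fbln2* was thus the fibulin gene with the largest difference among the 7 tested. *Hmcn2* was at or below 0.0224 TPM in all libraries and was not tested.

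Among 11 other tested microfibril genes 5 were above WT in both mutant pools and 3 below, with a median of 0.24. These counts are near the shares over all tested genes, 38% above and 22.7% below. *Adamtsl2*, whose protein binds fibrillin 1 and latent TGFβ binding protein, was at 2.98 and 2.27 TPM in *Shh-/-* and 0.452 and 0.933 TPM in WT (1.11, limma adjusted p = 0.114). The protease gene *Adamts17* was at 6.19 and 7.14 TPM against 2.66 and 2.56 TPM (1.08, limma adjusted p = 0.0780). The EMILIN list held *Emilin1*, *Emilin2*, *Emilin3* and the multimerin genes *Mmrn1* and *Mmrn2*. Of these, 4 of 5 were above WT in both mutant pools, beside the same 38%, and *Emilin3* was below. The 4 included both multimerin genes (log2 difference 0.38 for *Mmrn1* and 0.48 for *Mmrn2*). *Emilin1* was at 83.6 and 78.5 TPM against 57.7 and 44.0 TPM (0.67, limma adjusted p = 0.114), and *Emilin2* at 9.95 and 8.81 TPM against 5.67 and 4.31 TPM (0.80, limma adjusted p = 0.117).

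The other lysyl oxidases included *Loxl2*, which acts on collagen IV of basement membranes and was more abundant than *Lox* and *Loxl1* in every library. It was at 101.2 and 87.9 TPM in *Shh-/-* and 42.9 and 30.7 TPM in WT, with pools well apart (1.35, limma adjusted p = 0.0633). *Loxl3* was at 13.7 and 11.8 TPM against 8.05 and 7.67 TPM (0.63, limma adjusted p = 0.122), and *Loxl4* was below 1 TPM in all libraries. *Lox* was thus the tested gene of this enzyme family that was lower in the mutants, and the other 3 tested were higher.

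Of 5 genes for processing and copper supply, 3 were above WT in both mutant pools and 1 below, beside 38% and 22.7% of all tested genes. *Bmp1*, whose protease trims lysyl oxidase and procollagen precursors, was at 75.0 and 58.4 TPM in *Shh-/-* and 42.8 and 36.0 TPM in WT (0.74, limma adjusted p = 0.111). *Atp7a*, the transporter that loads copper onto lysyl oxidases, was at 17.6 TPM in both *Shh-/-* pools, against 29.4 and 44.6 TPM in WT (−1.0, limma adjusted p = 0.104). Of the elastin receptor and elastin-degrading genes, 5 were tested, with a median of 0.22, and 3 had both mutant pools above WT, beside the same 38%. *Neu1* and *Ctsa*, of the receptor complex, overlapped between genotypes, with log2 differences of 0.08 and 0.01. *Mmp9*, a gelatinase gene that also cleaves elastin, was at 4.08 and 2.82 TPM in *Shh-/-* and 0.433 and 0.0945 TPM in WT (1.81, limma adjusted p = 0.0697). *Glb1* was at 24.6 and 19.6 TPM against 13.7 and 16.6 TPM (0.51, limma adjusted p = 0.179), and *Mmp12*, the macrophage elastase gene, was listed at 0 in all libraries.

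Markers of several cell types were read beside the members, where 38% of all tested genes had both mutant pools above WT and 22.7% had both below. General mesenchyme markers summed to 1655.5 to 1741.7 TPM in *Shh-/-* and 1206.0 to 1285.2 TPM in WT, with 7 of 9 above WT in both pools and a median of 0.53, which was 0.20 when composition-adjusted. *Twist1*, at 147.0 and 125.0 against 46.1 and 43.8 TPM, was the one that passed (limma adjusted p = 0.0323), and *Dcn* was the one with both mutant pools below WT. Smooth muscle markers summed to 484.8 to 495.5 TPM against 295.4 to 296.2 TPM, with 3 of 7 above WT in both pools and a median of 0.19, which was 0.59 by FPKM and 0.68 for genes with a mean of 5 TPM or more. Most of this sum came from *Acta2* (179.4 and 197.8 against 103.8 and 107.2 TPM) and *Tagln* (231.5 and 207.9 against 116.4 and 120.4 TPM). *Tagln* passed (0.88, limma adjusted p = 0.0493). The defining genes were low throughout, with *Myh11* at 1.45 and 1.32 TPM in *Shh-/-* against 1.13 and 1.64 TPM in WT. *Myocd*, at 0.521 and 1.46 against 1.52 and 2.16 TPM, was the one marker of this list with both mutant pools below WT. Endothelial markers summed to 293.0 to 342.3 TPM against 182.3 to 194.7 TPM, with 6 of 6 above WT in both pools and none past limma's threshold (6 with an unadjusted p under 0.05).

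Neuron markers summed to 554.1 to 601.1 TPM in *Shh-/-* and 202.2 to 217.3 TPM in WT (7 of 8 above WT in both pools, 4 passed). *Isl1* was the one below WT in both (68.3 and 57.3 against 93.1 and 115.7 TPM). Cardiac and skeletal muscle markers summed to 130.1 to 148.7 against 60.9 to 65.8 TPM (4 of 7 tested above WT in both pools, 2 passed). *Nkx2-5* was the one below (5.97 and 4.73 against 18.5 and 13.6 TPM). Of all tested genes, 0.725% passed. Neural crest markers overlapped in sum, at 134.6 to 172.0 against 107.2 to 136.4 TPM, with 6 of 7 above WT in both pools and *Ets1* below. Epithelial markers summed to 424.5 to 489.2 TPM against 435.3 to 447.1 TPM, with 3 of 8 above WT in both mutant pools (*Epcam*, *Krt8* and *Krt18*) and 4 below. Among the latter were *Foxa2* (log2 difference −2.13, limma adjusted p = 0.0602) and *Nkx2-1* (−1.64, limma adjusted p = 0.0715). Cartilage precursor markers were at 202.0 to 288.0 against 163.8 to 180.9 TPM, most of it from *Col2a1* (249.0 and 161.0 against 136.7 and 127.3 TPM). Of 4 tested, *Col2a1* was the 1 above WT in both mutant pools and *Sox5* the 1 below, with a median of 0.12. *Sox9* overlapped (log2 difference 0.02). *Matn1* was listed at 0 in all libraries and *Acan* at most at 0.0215 TPM. Erythroid markers (11814.3 to 17912.9 against 16194.0 to 18340.2 TPM) and macrophage markers (9.7 to 14.3 against 8.4 to 12 TPM) overlapped. The part of these cell types in the rise of *Eln* and *Fbln2* was not tested.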

How the data were processed

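The authors made poly(A)-selected, stranded libraries, sequenced them single-end, aligned to mm10 with HISAT2 2.1.0 and built gene tables with StringTie 1.3.6. The annotation release was not given in the sources used here. The deposited values are, per gene, the mean read coverage (not scaled between libraries), FPKM, and TPM, which the authors' tool scaled to a sum of 1000000. No read counts were used, so depth was taken as coverage over FPKM in genes with 1 GENCODE M21 transcript, and precision rests on 2 pools a genotype.

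TPM was summed per gene ID and tested as log2(TPM + 1) with limma 3.58.1 in R 4.3.3, whose eBayes step used a mean-variance trend. The p-values measure the spread between pools. GENCODE M21 gave length and GC content of the longest transcript for 99.5% of tested genes. The script was tested on simulated data. All 10 members were described in full. In the other lists the text names genes past the threshold, or else the 2 with the largest absolute change. *Hmcn2*, *Emilin3*, *Mmrn1*, *Mmrn2*, *Loxl4*, *Neu1*, *Ctsa*, *Mmp12* and marker genes are also named, chosen after their values were seen. Members and lists were chosen with earlier results of these data known. Figures were drawn with matplotlib 3.10.9.

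Alternatives were a pseudocount of 0.1, no filter, a filter at a mean of 5 TPM, median centring, quantile normalization, TPM without haemoglobin and mitochondrial genes, FPKM, eBayes without trend or robust, values adjusted in each library for transcript GC percentage and length (splines with 5 degrees of freedom), each pool left out, and scaled coverage (coverage over aligned bases), which was added after seeing the data.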

Additional observations from a re-analysis of the deposited data

How the results depend on the processing

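Each of the 10 members kept its direction under all 15 alternatives in which it was tested. *Eln* and *Fbln2* both passed in 8 of the 11 alternatives that kept all 4 pools. The count of members past the threshold was 1 with composition-adjusted values (*Fbln2*), 1 with scaled coverage (*Eln*), and 0 without a filter on TPM, where 28524 genes were tested, 0 passed in limma and 7 members and 5011 genes had an unadjusted p under 0.05. With 1 pool left out, which assumes that the lone pool varies like the other genotype, 0 members passed (5 to 9 with an unadjusted p under 0.05) and 0 to 16 genes passed of 123 (16 without WT pool 6, 0 without each of the others, with 2070 to 3761 at an unadjusted p under 0.05). A pseudocount of 0.1 gave 69 genes. No gene of the other elastic fibre lists passed under any alternative. Median centring moved the median of all tested genes from 0.083 to −0.046 and that of the members from 0.50 to 0.38, and composition adjustment moved the latter to 0.31. The cause of these shifts was not tested. No paired analysis was possible because the pool numbers (1 and 2, 4 and 6) are not shared between genotypes. *Shh-/-* pool 1 had the lowest depth, and its part in the low *Lox* value was not tested.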
